A study of Rattus norvegicus with 9 samples.

Results

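Bdnf, the gene of the brain-derived neurotrophic factor, Ntrk2, Ntrk3 and Ngfr, the genes for the neurotrophin receptors TrkB, TrkC and p75, and Gdnf, Ret and Gfra1, the genes of the glial cell line-derived neurotrophic factor and its receptors, were followed in the rat adrenal medulla after immobilization stress. All probe sets annotated to exactly 1 of these 7 symbols were taken, which gave 15 probe sets of the 31099 on the array and of the 20826 with 1 gene symbol, which cover 14217 genes. This rule reads the annotation alone, but the 7 genes were picked with earlier results of these data known. RNA came from adult rats of 280 to 320 g, with the medulla of both adrenals dissected, and was measured on 9 Affymetrix arrays. The 3 Control arrays are of unstressed rats, the 3 arrays named 1XIMO of rats immobilized once for 2 h, and the 3 named 6XIMO of rats immobilized for 2 h daily on 6 days. In both stressed groups the tissue was taken after the last session, so that the 6XIMO rats had been through an acute session as well. The question put by this design is how the response to a single immobilization compares with the response to a repeated one. Whether the 3 arrays of a group come from different rats is not stated, and p-values here measure only how these samples vary.

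Neurotrophins are secreted growth factors that are made as larger precursors and cut by proteases. The mature forms act through Trk receptor tyrosine kinases, while p75 binds all of them and, with sortilin, their precursors. GDNF acts through a complex of the co-receptor GFRA1, which is held on the outer membrane, and the tyrosine kinase RET. Chromaffin cells of the medulla descend from the neural crest, as sympathetic neurons do, and both lineages are known to respond to these factors.

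The rat Bdnf gene has several promoters, each of which starts a transcript with its own first exon joined to a common coding exon. Activity-dependent transcription of Bdnf is classically assigned to cAMP response elements, the sites of CREB and CREM. The promoter table of RefSeq (GRCr8) held 6 windows for Bdnf and 1 each for Gdnf, Ret and Gfra1, while Ntrk2, Ntrk3 and Ngfr had no entry. The 250 bases before each start were searched on both strands for the full element TGACGTCA, its 5′ part TGACG, which lies inside it, and the variant core TCACGT, which can overlap the other strand of TGACG. The full element was in none of the 9 windows, the core TCACGT in 2 of the Bdnf windows, and TGACG in 1 Bdnf window and in the Gdnf window. Among 33469 rat promoter windows of the same length, 1.6% held TGACGTCA, 18.2% held TGACG and 5.8% held TCACGT. The 2 Bdnf windows with the core are printed here because Bdnf is the member with the clearest change, with the matched letters in capitals, 5′ to 3′ on the plus strand.
Bdnf window 1, chr3:116619383-116619632: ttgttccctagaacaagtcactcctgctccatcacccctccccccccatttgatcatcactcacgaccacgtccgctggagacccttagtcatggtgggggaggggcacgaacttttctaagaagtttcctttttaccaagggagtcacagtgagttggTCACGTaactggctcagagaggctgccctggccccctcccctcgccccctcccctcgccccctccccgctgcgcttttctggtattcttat
Bdnf window 4, chr3:116637608-116637857: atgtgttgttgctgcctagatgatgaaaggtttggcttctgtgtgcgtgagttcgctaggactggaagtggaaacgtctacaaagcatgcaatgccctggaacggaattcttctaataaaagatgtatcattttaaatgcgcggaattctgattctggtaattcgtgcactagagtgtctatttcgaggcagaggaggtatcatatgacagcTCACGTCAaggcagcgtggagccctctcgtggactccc
In window 1 the core begins 91 bases before the start. In window 4 it begins 38 bases before the start and overlaps CGTCA, which is TGACG read on the other strand. The Gdnf window held CGTCA 49 bases before the start. These matches describe the sequence, and the arrays do not tell which promoter a Bdnf transcript came from.

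Every array had been scaled to a trimmed mean between 2500.6 and 2501.0, but the 6XIMO arrays stood apart from the others. The ratio of the 3′ to the 5′ probe sets of actin, a sign of RNA length, was 1.45 to 2.15 in Control, 1.57 to 1.99 in 1XIMO and 6.11 to 231.0 in 6XIMO, and that of GAPDH was 1.1 to 1.41, 1.13 to 1.32 and 1.79 to 5.02. The hybridization spikes had mean log2 intensities of 12.04 to 13.08, 11.96 to 13.46 and 14.04 to 17.52. The first 6XIMO array holds the upper end of each of these 6XIMO ranges. It correlated with the others at 0.607 to 0.698, against 0.858 to 0.974 among the other 8. It was the highest of the 9 arrays in 8 of the 15 member probe sets (53.3%) and in 38.3% of all probe sets with 1 symbol. Differences of the member probe sets between 6XIMO and Control are therefore given with and without this array. Most 6XIMO results of other genes are given with all 9 arrays only. The part of RNA quality in the 6XIMO results was not tested. Markers of chromaffin cells were abundant, with a mean log2 level over 11 genes of 14.61 to 15.20 in Control, 14.78 to 15.49 in 1XIMO and 15.41 to 16.18 in 6XIMO. Markers of the adrenal cortex, the tissue around the medulla, were as clearly present, at 14.52 to 14.99, 14.56 to 15.57 and 15.61 to 16.01 over 10 genes, and no marker of these lists was at 0.

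Levels below are deposited intensities, and differences are of log2(intensity + 16), from limma with Benjamini-Hochberg adjustment over 15716 probe sets. A probe set was called higher or lower at an adjusted p under 0.05. Of the 15 member probe sets 8, from 5 genes, passed a filter on the mean level that removed the lowest 30%. Only 5 of them would have passed by their Control level, and both Bdnf probe sets and Ntrk2 1368972_at passed through the stressed groups alone. The other 7, which include the only probe sets of Ntrk3 and Gdnf, were tested in a fit of all 20826 probe sets without the filter. In bulk tissue, fewer cells of a type and less RNA per cell cannot be told apart.

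After 1 session, Bdnf was the member that rose in the filtered fit, 16-fold, and 1 of the 8 probe sets tested was called higher and 0 lower. Over all probe sets tested, 3.65% were called higher and 3.64% lower. Without the filter 2 of 15 were called higher, the other being Ntrk2 1370687_a_at, against 2.57% of all (2.21% were lower). After 6 sessions Bdnf rose 13.4-fold and Ntrk2 1383135_at 3.41-fold, so that 2 of 8 were called higher and 0 lower, against 8.16% and 14.3% of all. Without the filter 4 of 15 were called higher, which adds Ntrk2 1370687_a_at and Ret 1388208_a_at, against 5.93% of all (9.87% were lower). Both comparisons share the Control arrays. Between the stressed groups 0 of 8 were called in either direction, against 4.13% higher and 5.20% lower of all, and without the filter 1 of 15 was higher (Ntrk2 1370687_a_at), against 2.62% (3.22% were lower). By the unadjusted p of limma, 3 of the 8 were higher and 0 lower at under 0.05 after 1 session, against 7.43% and 12.2% of all probe sets tested. After 6 sessions 2 were higher and 1 lower (Ngfr), against 12.4% and 24.5%, and between the stressed groups 0 in either direction, against 11.6% and 16.4%.

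How the arrays were scaled moved these counts and the background. With median centring 2 of 8 members were called higher after 1 session (Bdnf and Ntrk2), against 1.30% of all higher and 0.414% lower. After 6 sessions it again gave 2, against 4.01% and 2.21%, and between the stressed groups 0, against 0.579% and 0.375%. With quantile normalization 9 member probe sets passed the filter. Of these 3 were called higher after 1 session (Bdnf and Ntrk2), against 3.56% of all higher and 2.08% lower, and 3 after 6 sessions, against 8.05% and 7.18%. Between the stressed groups 1 was called higher (Ntrk2), against 2.33% and 1.75%. No member was called lower with either scaling.

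The groups did not overlap in 5 of the 8 tested probe sets after 1 session and in 3 of 8 after 6 sessions, while 39.2% and 40.9% of all probe sets tested showed the same. The 5 include both Bdnf probe sets, which passed the filter through the stressed groups alone, so this count is no separate support. The share after 6 sessions was near that of all probe sets. Between 6XIMO and 1XIMO this held for 1 of 8, against 34.3% of all. Without the first 6XIMO array 7 member probe sets passed the filter, and 3 were called higher after 1 session (Bdnf 1368677_at, Ntrk2 1383135_at and Gfra1 1387007_at), 2 after 6 sessions (Bdnf 1368677_at and Ntrk2 1383135_at), and 1 lower in 6XIMO than in 1XIMO (Gfra1 1387007_at). The matching shares of all probe sets were 9.01%, 15.2% and 18.1%. Those called in the other direction were 15.5%, 30.5% and 12.0%. That array therefore sets how many members pass, in the 1XIMO comparison too, because all arrays share 1 estimate of the spread.

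**Figure D1:**
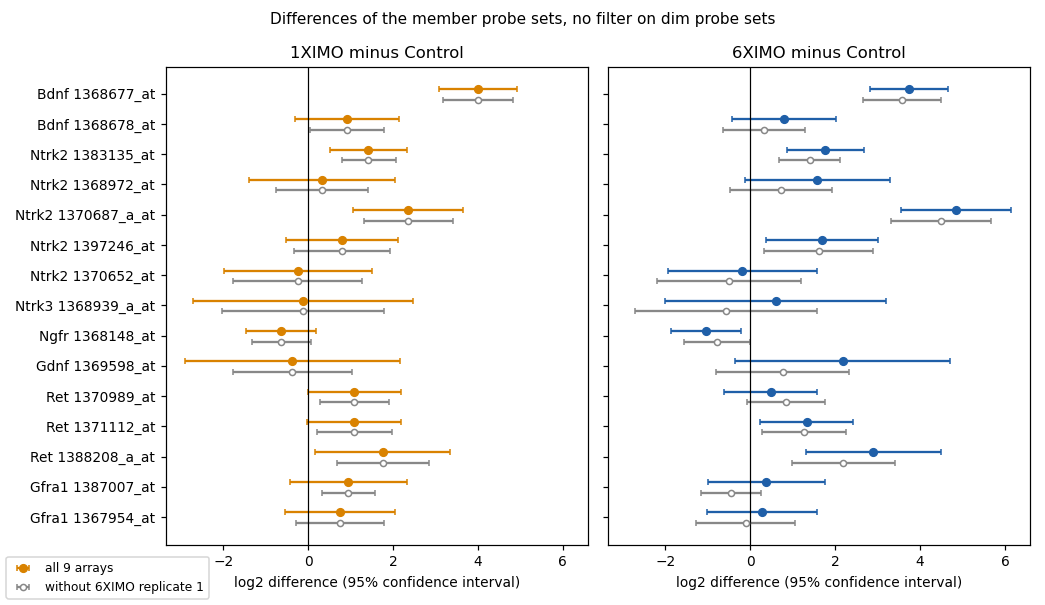
Log2 differences of the 15 member probe sets in 1XIMO (left) and 6XIMO (right) against Control, with 95% confidence intervals, from the fit without a filter. Filled coloured points use all 9 arrays and open grey points leave out the first 6XIMO array. Bdnf 1368677_at lies at 4.0 on the left and Ntrk2 1370687_a_at at 4.85 on the right, and the intervals of Ntrk3 and Gdnf span 0 in both panels.

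Bdnf, the ligand of TrkB, was read by 2 probe sets. With 1368677_at the Control intensities were 346, 126 and 155, those of 1XIMO 4160, 2288 and 3712, and those of 6XIMO 3485, 2394 and 2470. All 6 stressed arrays lay far above all 3 Control arrays, and the stressed groups overlapped. The mean log2 levels were 7.69 ± 0.71 in Control, 11.69 ± 0.46 in 1XIMO and 11.43 ± 0.30 in 6XIMO (SD, n = 3). The rise after 1 session was 4.0 ± 0.40 on the log2 scale (SE, 95% interval 3.09 to 4.90, adjusted p = 0.000467). After 6 sessions it was 3.74 ± 0.40 (2.83 to 4.64, adjusted p = 0.000591), and 3.57 with an adjusted p of 0.000197 without the first 6XIMO array. Both rises passed in each of the 22 settings tried, between 3.70 and 4.40 after 1 session and between 3.45 and 4.14 after 6. The difference between the stressed groups was -0.26 (-1.16 to 0.65, adjusted p = 0.714), an interval that leaves room for a change of either sign.

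The other Bdnf probe set, 1368678_at, moved less. Its intensities were 423, 229 and 281 in Control, 542, 593 and 623 in 1XIMO, and 1042, 270 and 532 in 6XIMO. The 1XIMO arrays lay close together and above all Control arrays, while the second 6XIMO array fell within the Control range. The differences from Control were 0.92 ± 0.54 after 1 session (adjusted p = 0.43) and 0.79 ± 0.54 after 6 sessions (adjusted p = 0.323, and 0.32 with 0.556 without the first 6XIMO array). Neither passed. Over the 9 arrays the log2 levels of the 2 Bdnf probe sets correlated at 0.72, so the size of the Bdnf rise differs by probe set although both were higher on average in the stressed groups. The annotation does not say which part of the transcripts each one reads.

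**Figure D2:**
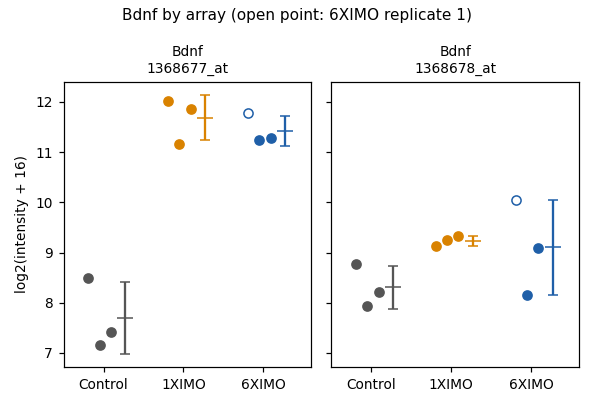
Log2(intensity + 16) of the 2 Bdnf probe sets on each array, by group, with the group mean and SD (n = 3) beside the points and the first 6XIMO array as an open point. With 1368677_at the stressed groups have means of 11.69 and 11.43 against 7.69 in Control, and with 1368678_at 9.23 and 9.10 against 8.31.

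Gdnf, the ligand of the GFRA1 and RET complex, was read by 1 dim probe set below the filter. It gave 59.6, 46 and 129 in Control, 124, 21 and 45.4 in 1XIMO, and 2864, 218 and 78.5 in 6XIMO. The groups overlapped, and 1 array, the first 6XIMO array, stood far above the other 8. The difference was -0.37 ± 1.14 after 1 session (adjusted p = 1) and 2.18 ± 1.14 after 6 sessions (-0.35 to 4.71, adjusted p = 0.223). Without the first 6XIMO array the latter was 0.76 (adjusted p = 0.432). No change of Gdnf was detectable at this precision.

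Ntrk2 encodes TrkB, which is known in a full-length form with the kinase and in truncated forms without it, and the annotation does not say which form its 5 probe sets read. The brightest, 1383135_at, gave 486, 660 and 356 in Control, 1119, 1524 and 1376 in 1XIMO, and 2845, 1189 and 1433 in 6XIMO. Each stressed array was above each Control array, and 1XIMO and 6XIMO overlapped. After 6 sessions it rose by 1.77 ± 0.39 (0.89 to 2.65, adjusted p = 0.0123), and by 1.40 (adjusted p = 0.0049) without the first 6XIMO array. This call was lost without the third Control array (adjusted p = 0.0562) and with only the groups compared in the fit (0.0517), and held in the other 20 of 22 settings. After 1 session the difference of 1.42 ± 0.39 (0.55 to 2.30, 2.68-fold) missed the threshold at an adjusted p of 0.0606, and reached 0.00448 without the first 6XIMO array. It passed in 7 of 22 settings. The difference between 6XIMO and 1XIMO was 0.35 (-0.53 to 1.22, adjusted p = 0.598), and -0.03 without the first 6XIMO array.

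Of the member probe sets, the Ntrk2 probe set 1370687_a_at had the largest difference between group means. It was dim in Control, at 56.5, 53.6 and 45.6, reached 369, 179 and 541 in 1XIMO, and 3148, 1943 and 1183 in 6XIMO. The 3 groups did not overlap in any pair. Its mean log2 level was 6.08 ± 0.12, 8.44 ± 0.77 and 10.93 ± 0.70 (SD, n = 3). In the fit without the filter it rose by 4.85 ± 0.58 after 6 sessions (3.55 to 6.14, 28.8-fold, adjusted p = 0.000919), and by 4.50 (adjusted p = 0.000241) without the first 6XIMO array. This rise passed in each of 16 settings, at 4.11 to 5.20 on the log2 scale. The Control level is below the filter and no detection call was used, so the size of the fold rests on a dim base. After 1 session the rise was 2.36 ± 0.58 (1.06 to 3.65, 5.13-fold, adjusted p = 0.0478), and 6XIMO lay 2.49 ± 0.58 above 1XIMO (1.19 to 3.79, 5.62-fold, adjusted p = 0.0377).

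The last 2 differences rest on few arrays. The rise after 1 session passed in 6 of 16 settings, and its adjusted p was 0.113, 0.154 and 0.184 without Control array 1, 2 or 3, 0.147, 0.0733 and 0.235 without 1XIMO array 1, 2 or 3, and 0.0649 and 0.0584 without 6XIMO array 2 or 3. With the replicate number as a block it was 0.0677. The difference between the stressed groups passed in 7 of 16, with 0.0584, 0.0655 and 0.0704 without Control array 1, 2 or 3, 0.104, 0.152 and 0.0957 without 1XIMO array 1, 2 or 3, and 0.0619 and 0.0524 without 6XIMO array 2 or 3, and 0.0504 with the block. Without the first 6XIMO array both passed, at 0.00685 and 0.0171. The 6XIMO arrays that carry the larger value are also those with raised 3′ to 5′ ratios, and the part of RNA quality was not tested.

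Of the other Ntrk2 probe sets, 1397246_at gave 204, 163 and 166 in Control, 623, 178 and 286 in 1XIMO, and 683, 384 and 845 in 6XIMO. All 6XIMO arrays were above all Control arrays. The difference after 6 sessions was 1.69 ± 0.59 (0.38 to 3.00) and missed the threshold with and without the first 6XIMO array (adjusted p = 0.0786 and 0.0501). The probe set 1368972_at gave 278, 238 and 166 in Control, 231, 366 and 270 in 1XIMO, and 2344, 210 and 667 in 6XIMO. Its groups overlapped, and neither difference passed, at 0.33 (adjusted p = 0.943) and 1.58 ± 0.79 (adjusted p = 0.176). Without the first 6XIMO array the latter was 0.72 (adjusted p = 0.329) in the fit without the filter. The dimmest, 1370652_at, lay between 10.6 and 120 on every array and differed from Control by -0.24 and -0.19 (adjusted p = 1 and 0.893). The second of these was -0.50 (adjusted p = 0.639) without the first 6XIMO array.

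Correlations of 1383135_at with the other Ntrk2 probe sets over the 9 arrays were 0.85 for 1370687_a_at, 0.75 for 1368972_at, 0.67 for 1397246_at and 0.23 for 1370652_at. The first 3 of these were 0.78, 0.58 and 0.57 over the 8 arrays without the first 6XIMO array. These arrays share the group differences, so the values describe how alike the probe sets ran and no more. The 5 probe sets of TrkB thus disagreed in size after 6 sessions, from a difference of -0.19 to one of 4.85 on the log2 scale.

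**Figure D3:**
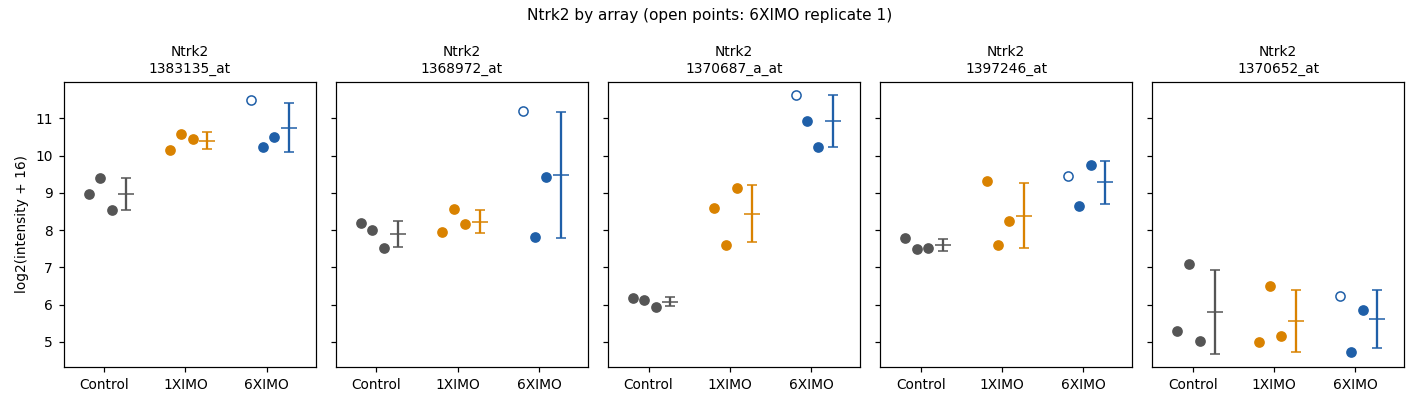
Log2(intensity + 16) of the 5 Ntrk2 probe sets on each array, by group, with the group mean and SD (n = 3) and the first 6XIMO array as an open point. In 1370687_a_at the 3 groups are separate, at means of 6.08, 8.44 and 10.93, whereas in 1370652_at they lie on top of each other, at 5.80, 5.55 and 5.60.

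Ntrk3, which encodes the neurotrophin-3 receptor TrkC, was read by 1 probe set below the filter. Its intensities were 70.4, 189 and 172 in Control, 261, 90.4 and 72.1 in 1XIMO, and 1143, 13.5 and 325 in 6XIMO. The highest and the lowest of the 9 values were both 6XIMO arrays. The differences from Control were -0.12 ± 1.17 (adjusted p = 1) and 0.60 ± 1.17 (-2.0 to 3.20, adjusted p = 0.768), and the latter turned to -0.58 (adjusted p = 0.67) without the first 6XIMO array. The intervals are too wide to show a change of either sign.

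Ngfr, which encodes p75, was lower in the stressed groups on average but did not pass the test. Its intensities were 5586, 8178 and 4576 in Control, 2263, 5618 and 4386 in 1XIMO, and 1977, 3749 and 3149 in 6XIMO. All 6XIMO arrays were below all Control arrays, and 1XIMO overlapped both. After 6 sessions the difference was -1.05 ± 0.38 (-1.90 to -0.20, a ratio of 0.483, adjusted p = 0.0745), and -0.79 (adjusted p = 0.0984) without the first 6XIMO array. It passed in 3 of 22 settings, which are the fit without the first 1XIMO array (adjusted p = 0.0455), the one blocked by replicate number (0.0266) and the one with array weights (0.0125). After 1 session it was -0.63 ± 0.38 (adjusted p = 0.44). Among the 8 probe sets past the filter it was the only one with a negative difference in both stressed groups.

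Schwann cells are known to carry p75, and their markers moved in both directions. The mean log2 level over 9 genes was 10.43 to 10.87 in Control, 10.65 to 10.81 in 1XIMO and 10.52 to 11.08 in 6XIMO. By the unadjusted p of limma 2 of 8 tested were higher and 2 lower after 6 sessions, and 1 and 1 after 1 session. By the adjusted p 1 fell after 6 sessions, S100b, a calcium-binding protein of glia, with a difference of -0.77 (adjusted p = 0.0457), a call lost without Control array 1, 2 or 3 (0.121, 0.127 and 0.105), 1XIMO array 2 or 3 (0.0737 and 0.0689) or 6XIMO array 2 (0.0892), and with the replicate block (0.0699). Markers of sympathetic and ganglion neurons had a mean log2 level over 12 genes of 11.83 to 12.43, 12.19 to 12.55 and 12.27 to 12.52, and 1 of 12, the neuropeptide gene Npy, which chromaffin cells also express, rose after 6 sessions (2.14 ± 0.35, adjusted p = 0.00335). The part of these cells in the Ngfr values was not tested.

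**Figure D4:**
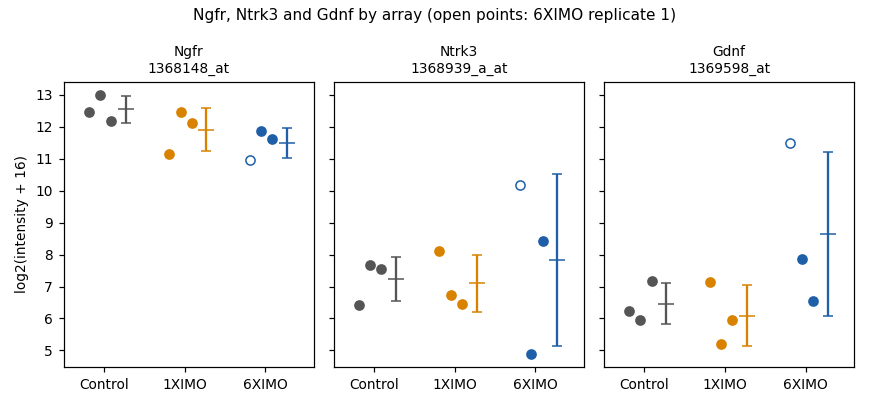
Log2(intensity + 16) of the single probe sets of Ngfr, Ntrk3 and Gdnf on each array, by group, with the group mean and SD (n = 3) and the first 6XIMO array as an open point. Ngfr steps down from 12.54 to 11.91 and 11.49, and in Ntrk3 and Gdnf the 6XIMO arrays spread widely, with SDs of 2.70 and 2.55.

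Ret, the signalling kinase of the GDNF receptor, was higher on average after stress with each of its 3 probe sets. The brightest, 1370989_at, gave 572, 669 and 250 in Control, 1073, 954 and 960 in 1XIMO, and 397, 920 and 746 in 6XIMO. The 1XIMO arrays lay above all others, while the first 6XIMO array fell within the Control range. The difference after 1 session was 1.09 ± 0.47 (0.03 to 2.15, 2.13-fold, adjusted p = 0.237, and 0.0506 without the first 6XIMO array). After 6 sessions it was 0.49 (adjusted p = 0.492), and 0.83 (adjusted p = 0.114) without that array, so neither passed in these fits. Each passed in 2 of 21 settings. These were array weights (adjusted p = 0.00494 and 0.0191) and quantile normalization without the first 6XIMO array (0.0224 and 0.018).

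The other 2 Ret probe sets were below the filter. With 1388208_a_at the intensities were 112, 123 and 53.1 in Control, 387, 388 and 277 in 1XIMO, and 2147, 299 and 742 in 6XIMO, and each stressed array was above each Control array. It rose by 2.9 ± 0.72 after 6 sessions (1.31 to 4.50, 7.49-fold, adjusted p = 0.0227), and by 2.19 (adjusted p = 0.0109) without the first 6XIMO array. The call was lost without Control array 1, 2 or 3 (adjusted p = 0.0597, 0.0575 and 0.0965) or 6XIMO array 3 (0.0508). After 1 session the difference of 1.76 ± 0.72 (3.39-fold) had an adjusted p of 0.254, and of 0.0317 without the first 6XIMO array.

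The remaining Ret probe set, 1371112_at, gave 152, 259 and 146 in Control, 530, 357 and 335 in 1XIMO, and 513, 430 and 484 in 6XIMO. Both stressed groups lay above Control without overlap. The differences were 1.08 ± 0.50 (adjusted p = 0.336) and 1.33 ± 0.50 (0.22 to 2.43, adjusted p = 0.0978), of which the second was 1.27 with an adjusted p of 0.0464 without the first 6XIMO array. The 3 Ret probe sets correlated at 0.23 to 0.85 over 9 arrays and at 0.79 to 0.91 over 8.

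Gfra1, the co-receptor that binds GDNF, was read by 2 probe sets. In 1387007_at the intensities were 1039, 726 and 601 in Control, 1406, 1822 and 1317 in 1XIMO, and 3277, 500 and 612 in 6XIMO. The 1XIMO arrays were above all Control arrays, and 6XIMO held both the highest and the lowest value of the 9. The difference after 1 session was 0.95 ± 0.62 (-0.44 to 2.34, adjusted p = 0.498). It passed without the first 6XIMO array, at the same size and an adjusted p of 0.0272. After 6 sessions the difference was 0.38 ± 0.62 (adjusted p = 0.693) and turned to -0.46 (adjusted p = 0.228) without that array.

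Between the stressed groups the first 6XIMO array decided the Gfra1 call. The difference between 6XIMO and 1XIMO was -0.57 ± 0.62 (adjusted p = 0.583) with it and -1.41 ± 0.30 (-2.08 to -0.75, adjusted p = 0.00778) without it. With the other probe set, 1367954_at, the intensities were 705, 385 and 264 in Control, 962, 651 and 575 in 1XIMO, and 873, 606 and 242 in 6XIMO, and the groups overlapped. No difference passed, at 0.75 ± 0.57 after 1 session (adjusted p = 0.59) and 0.27 ± 0.57 after 6 (adjusted p = 0.762). Without the first 6XIMO array the latter was -0.11 (adjusted p = 0.875).

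**Figure D5:**
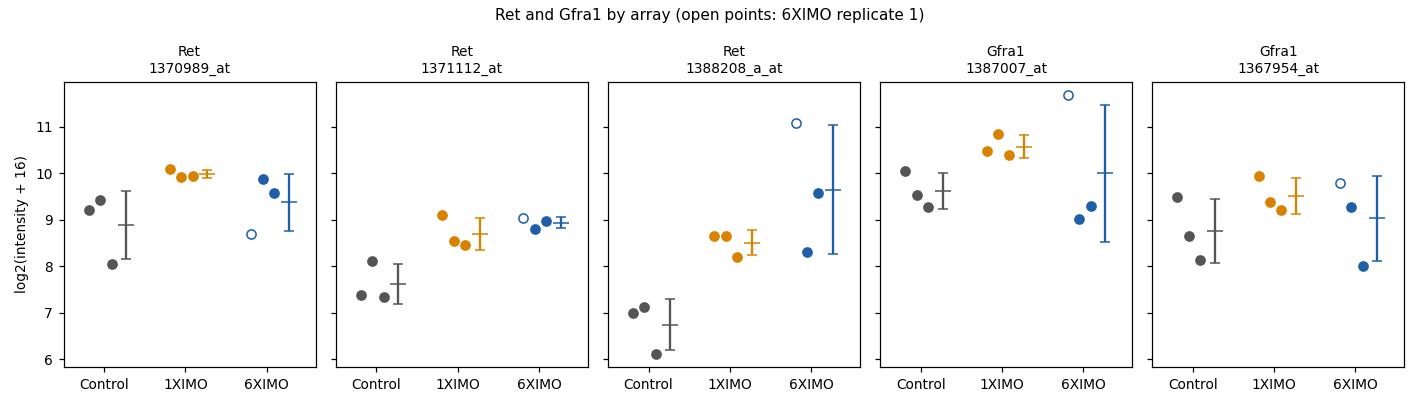
Log2(intensity + 16) of the 3 Ret and 2 Gfra1 probe sets on each array, by group, with the group mean and SD (n = 3) and the first 6XIMO array as an open point. The 1XIMO means are above the Control means in all 5 panels, by 0.75 to 1.76, and the open point lies far from the other 6XIMO points in Ret 1388208_a_at and Gfra1 1387007_at.

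The genes around these members were described from 11 lists of the pathway, each gene by its brightest tested probe set among 11287 genes. The background for these counts was 3.80% of genes higher and 4.47% lower after 1 session, 9.03% and 13.9% after 6 sessions, and 4.73% and 4.30% between the stressed groups. By the unadjusted p it was 7.55% and 14.3%, 13.5% and 23.6%, and 13.2% and 14.0%. The median difference of all genes was -0.13, -0.23 and -0.08 in these comparisons, and 0.00, -0.06 and -0.03 when each array was centred on its median.

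Among the ligands, Bdnf alone of 3 neurotrophins on the array passed the filter. Persephin, encoded by Pspn, alone of 3 GDNF family ligands passed it and differed from Control by 0.37 (adjusted p = 0.889) and -0.08 (adjusted p = 0.94). Of 5 neurotrophin receptor genes tested 0 were called after 1 session (1 by the unadjusted p of limma, median 0.06) and 1, Ntrk2, rose after 6 (median -0.19). Sortilin, encoded by Sort1, which carries proneurotrophins and sorts BDNF, differed by -0.27 ± 0.26 (adjusted p = 0.723) and -0.37 ± 0.26 (adjusted p = 0.335). Of 6 GDNF family receptor genes 0 were called in any of the 3 comparisons, with medians of 0.27, 0.36 and -0.06, and by the unadjusted p of limma 1 was higher after 1 session and 1 lower after 6. Gfra2, the neurturin co-receptor, differed by -0.04 and 0.27 (adjusted p = 0.994 and 0.46), and Gfra3, the artemin co-receptor, by 0.34 and 0.59 (adjusted p = 0.727 and 0.237).

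Of 9 proneurotrophin processing enzymes and their inhibitors 2 rose after 1 session (median 0.27). Pcsk6, a proprotein convertase, rose by 1.95 ± 0.34 (adjusted p = 0.00934, lost without the second 1XIMO array). Plat, which encodes tissue plasminogen activator, a protease known to act on proBDNF through plasmin, rose by 1.84 ± 0.43 (adjusted p = 0.0305), and this call was lost when any one of the Control or 1XIMO arrays was left out, or with the replicate block (0.0585). After 6 sessions 4 rose (Pcsk6, Pcsk2, Serpini1 and Cpe) and 1 fell, the urokinase gene Plau (median 0.80). Without the first 6XIMO array Plat was called higher after 6 sessions too (1.40, adjusted p = 0.000335). With all 9 arrays Pcsk2, a convertase of secretory granules, rose by 1.68 ± 0.31 (adjusted p = 0.00619), and Serpini1, the protease inhibitor neuroserpin, by 1.01 ± 0.21 (adjusted p = 0.01, lost without the third Control array). Cpe, carboxypeptidase E, which trims peptides and sorts proBDNF into granules, rose by 1.77 ± 0.27 (adjusted p = 0.00254), but by 0.58 with quantile normalization. Of 11 markers of chromaffin cells 5 rose after 6 sessions (Chga, Chgb, Dbh, Pnmt and Slc18a2), and by the unadjusted p of limma 7 were higher and 0 lower. The list did not move as one, since Phox2a differed from Control by -0.48 (adjusted p = 0.185). Chga, a granule protein, rose by 2.14 (adjusted p = 0.0209), a call lost without Control array 2 or 3 (0.0785 and 0.0843) and with quantile normalization (0.27, adjusted p = 0.252). Of 10 cortex markers 7 rose and 1 fell in the same comparison. After 1 session the cortex markers called were Scarb1 (1.86, adjusted p = 0.0294) and Mrap (1.32, adjusted p = 0.0214). Both were higher, with quantile normalization as well. The marker differences of 6XIMO depended on the scaling, against Control as well as against 1XIMO. Against 1XIMO the main fit called Chga, Chgb, Dbh, Pnmt, Star, Cyp21a1, Hsd3b1 and Fdx1 higher, and quantile normalization called no chromaffin or cortex marker. Dbh differed by 2.02 in the main fit and 0.08 with quantile normalization, and Fdx1 by 1.94 and 0.01. With quantile normalization 1XIMO differed from Control by 0.21 for Dbh and 0.09 for Fdx1. Their 6XIMO differences from Control were therefore small with that scaling too. Of the markers of endothelium, leukocytes, fibroblasts, erythrocytes and adipocytes, those called after 6 sessions were Kdr, Aif1 and Csf1r, which fell, and Mgp and Pdgfra, which rose. The part of cell makeup was not tested.

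Dok1 and Gab1, of the list of Trk and Ret adaptors and effectors, fell after 1 session. Of 25 adaptors and effectors 0 rose (1 by the unadjusted p of limma) and 2 fell after 1 session (median -0.22). Dok1, an adaptor that docks on active tyrosine kinases, fell by 1.89 on the log2 scale (SE 0.30, adjusted p = 0.00527), and Gab1, a scaffold between receptors and PI3 kinase, by 1.26 (SE 0.19, adjusted p = 0.0039). After 6 sessions 2 rose (Map2k2 and Pik3ca) and 4 fell (Frs3, Gab1, Pik3r1 and Shc2, median -0.48). Pik3r1, the regulatory subunit of PI3 kinase, fell by 2.80 (SE 0.54, adjusted p = 0.00685), and Gab1 by 1.62 (SE 0.19, adjusted p = 0.000795). Over all genes the calls after 6 sessions leaned to lower as well, at 13.9% against 9.03%.

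Of 14 brakes on Trk and Ret signalling 2 rose and 1, Cblb, fell after 1 session (median 0.18). Spry2, a Sprouty inhibitor of the ERK branch, rose by 2.41 ± 0.43 (adjusted p = 0.01, lost without the third 1XIMO array), and Spry4, of the same family, by 1.19 ± 0.26 (adjusted p = 0.0239, lost without any one of the 3 Control arrays or 1XIMO array 2 or 3). With the replicate block the fall of Cblb was not called (adjusted p = 0.0654). After 6 sessions 0 rose (1 by the unadjusted p of limma) and 2 fell (median -0.33). These were Cblb, a ubiquitin ligase, with a difference of -1.57 ± 0.22 (adjusted p = 0.00187), and Spry1, with -1.62 ± 0.29 (adjusted p = 0.00527, and 0.0702 with quantile normalization). Without the first 6XIMO array Spry2 (1.58, adjusted p = 0.0105) and Ptprf also rose after 6 sessions, and Cbl, Ptpro and Rap1gap also fell. Of 10 partners of p75 0 were called after 1 session (2 higher and 1 lower by the unadjusted p of limma, median 0.05), and 1, the ubiquitin ligase Traf6, rose after 6 (2.16 ± 0.53, adjusted p = 0.0189, lost without Control array 1 or 3, and 1.41 without the first 6XIMO array). Without that array Traf6 also rose after 1 session (1.34, adjusted p = 0.00142). So did Maged1, while Adam17 fell (adjusted p = 0.0386 and 0.0151). After 6 sessions Bex1, Bex3 and Maged1 then rose besides Traf6.

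Of 18 transcription factors known to act on the Bdnf gene 3 rose (Crem, Bhlhe40 and Srf) and 2 fell (Crtc3 and Mef2c) after 1 session (median 0.07). With the replicate block 1 fell, Crtc3. Crem, which encodes activators and the inducible repressor ICER at cAMP response elements, rose by 4.30 ± 0.29 (adjusted p = 5e-05). After 6 sessions it rose by 5.55 ± 0.29 (adjusted p = 1.73e-05), with 1 gene higher and 6 lower in all (median -0.50). Crtc3, a cAMP-regulated coactivator of CREB, was lower by -1.67 ± 0.28 and -1.93 ± 0.28 (adjusted p = 0.00666 and 0.00201), and Mef2c, a calcium-regulated factor, by -2.13 ± 0.36 after 6 sessions (adjusted p = 0.00412). Of the 6 genes lower after 6 sessions only Crtc3 and Mef2c were called lower with quantile normalization. The list name covers factors that raise and factors that lower Bdnf transcription, so its count has no direction for Bdnf.

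Of 7 transcription factors of the sympathoadrenal lineage 1 rose, Sox4 (0.91 ± 0.23, adjusted p = 0.0451), and 1 fell, Gata2 (-1.52 ± 0.31, adjusted p = 0.0192), after 1 session, with 0 called after 6 (1 by the unadjusted p of limma, medians -0.49 and -0.29). The Sox4 call was lost without any array but the first 6XIMO array and with the replicate block (0.0644), and the Gata2 call without Control array 2 or 3 or any 1XIMO array. Of 16 other neurotrophic factors and receptors 0 were called after 1 session (2 by the unadjusted p of limma, median 0.39) and 2 fell after 6 (median 0.04). Met, the hepatocyte growth factor receptor, differed by -3.93 ± 0.96 (adjusted p = 0.0181, lost without Control array 1 or 3), and Cntfr, the ciliary neurotrophic factor receptor, by -1.11 ± 0.35 (adjusted p = 0.0461), a call lost without any array but the first 6XIMO array.

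The calls named from the lists varied in how far they depended on single arrays. After 1 session 2 of the 12 named genes (Crem and Dok1) passed in every setting, and leaving out 1 array left 5 to 12 of them called. After 6 sessions 4 of 14 (Crem, Crtc3, Cpe and Pik3r1) did so, and leaving out 1 array left 9 to 14. Centring each array on its median left 2 of the 12 and 6 of the 14. Of 107 list genes tested besides the members 8 rose and 6 fell after 1 session. Without the first 6XIMO array 18 rose and 9 fell, against 9.01% and 15.5% of all probe sets. After 6 sessions 8 rose and 15 fell, and 17 and 24 without that array, against 15.2% and 30.5%. With quantile normalization 7 rose and 7 fell after 6 sessions, against 8.05% and 7.18%.

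The genes whose log2 levels ran most like those of a member over the 9 arrays were found among the 11287 genes by Pearson correlation, with no test. For Bdnf 1368677_at they were Dnaja4, a co-chaperone (0.992), Slc1a4, an amino acid transporter (0.987), and Grhl1, a transcription factor (0.986). For Ntrk2 1383135_at they were Med13l, a Mediator subunit (0.979), Bdkrb2, a bradykinin receptor (0.975), and Tle3, a corepressor (0.973). For Ngfr they were Dcx, a microtubule protein of young neurons (0.938), Farsb, a tRNA synthetase subunit (0.936), and Tmem131l (0.933). For Ret 1370989_at they were C1galt1, a glycosyltransferase (0.960), Nrg1, a ligand of ErbB receptors (0.946), and Slc5a7, the choline transporter (0.912). For Gfra1 1387007_at they were Tfip11, a splicing factor (0.964), Relt, a receptor of the TNF receptor family (0.963), and LOC100909970 (0.954). Over the 8 arrays without the first 6XIMO array these values were 0.900 to 0.992. All of them include the differences between the groups, and the arrays share their scaling.

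Between members, Bdnf 1368677_at ran with Ntrk2 1383135_at at 0.85 over 9 arrays and 0.89 over 8, and against Ngfr at -0.71 and -0.70. Ntrk2 1383135_at ran with Ret 1388208_a_at at 0.95 and 0.93, and Gdnf with Ret 1388208_a_at at 0.61 over 9 arrays and -0.09 over 8. The last pair was alike through the first 6XIMO array alone.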

How the data were processed

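RNA of 9 arrays (3 per group) was analysed. The deposited values are linear intensities, 1 per probe set and array, and the arrays were labelled and run by Affymetrix per the labels' protocols. Per the series' design text, the authors planned their analysis in the GeneTraffic program. How probes were summarised, background-corrected and scaled is not given in the sources used here. Some label fields speak of mouse and brain tissue, but the organism field and the design text give rat and were used.

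Values were taken as log2(value + 16). The 436 probe sets annotated to several genes and the 9780 annotated to none were not tested, nor were the dimmest 30% by mean level (under 8.51 on the log2 scale). The 3 groups entered 1 linear model without covariates (limma 3.58.1, R 4.3.3; lmFit and eBayes with a trend; 6 residual degrees of freedom). The steps were tested on simulated data. Tables were handled with Python 3.11.15, pandas 2.3.3, numpy 2.4.6 and scipy 1.17.1. Tests are two-sided. The titles number the arrays in each group. Deviations of same-numbered arrays from their group means correlated at 0.143 to 0.393 in the 3 pairs of 1XIMO and Control arrays. The 6 different-numbered pairs of these groups gave -0.317 to 0.236. The 6 same-numbered pairs with 6XIMO arrays gave 0.057 to 0.18, of which 2 were over 0.1. The labels do not say that a number marks a shared animal, litter or day, so the main fit has no block. The block value stands beside each 1XIMO call it changes. Errors are SE for differences and SD for levels, and the number of arrays limits the precision.

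The text names every member probe set, up to 3 genes per pathway list and comparison with the smallest adjusted p among those past the threshold, and the 3 genes most like each member. Genes named beyond this, such as Bhlhe40, Map2k2 and the cell type markers, were named to complete a count. The members and lists were chosen with earlier results of these data known. A further pathway list is not reported here. Alternatives were a stricter filter (50%) and none, median centring and quantile normalization, a pseudocount of 1 or 64, a replicate block, array weights, only the groups compared, no trend, 1 probe set per gene, and leaving out each array. Settings that combine these with no filter were chosen after seeing the data.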

Additional observations from a re-analysis of the deposited data

Results flagged for a closer look

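Both stressed groups were set against the same Control arrays, so 6XIMO was also compared directly with 1XIMO, and 12 results named in the text passed. The actin 3′ to 5′ ratio was 6.11 to 231.0 in 6XIMO and 1.57 to 1.99 in 1XIMO. The number of sessions and the array quality therefore cannot be told apart in this comparison. Ntrk2 1370687_a_at was 2.49 higher on the log2 scale in 6XIMO (adjusted p = 0.0377). The other 11 are genes of the pathway lists, which were named because they passed. Of 107 list genes tested besides the members 3 were higher and 8 lower, against 4.73% higher and 4.30% lower of all genes. Without the first 6XIMO array 13 were higher and 24 lower, against 12.0% and 18.1% of all probe sets.

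Among processing enzymes, Cpe (1.58, adjusted p = 0.0136) and Pcsk2 (1.44, adjusted p = 0.0249) were higher in 6XIMO, and Plau, which encodes urokinase, differed by -1.30 (adjusted p = 0.0307). Cpe differed by 0.50 with quantile normalization (adjusted p = 0.0921). Of the adaptors and effectors, Crkl differed by -1.62 (adjusted p = 0.0282) and Pik3r1 by -2.22 (adjusted p = 0.0341). The Sprouty brakes Spry1 and Spry4 differed by -1.91 and -1.36 (adjusted p = 0.0115 and 0.0174). Spry4 had risen after 1 session, whereas Spry1 was below Control after 6.

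Of the transcription factors, Srf differed by -1.37 (adjusted p = 0.01), Sox4 by -1.0 (adjusted p = 0.0307) and Crem by 1.25 (adjusted p = 0.0308). The sign of the Crem difference turned with quantile normalization (-0.11, adjusted p = 0.57). Fgfr1, a fibroblast growth factor receptor, differed by -0.97 (adjusted p = 0.0182). These calls rest on few arrays. Of the 11 genes 0 passed by limma without the second or without the third 1XIMO array, with only the groups compared in the fit or with median centring, and 11 passed without the first 6XIMO array. With quantile normalization 5 passed, and those lost besides Cpe and Crem were Spry1 (adjusted p = 0.0623), Crkl (0.124), Pik3r1 (0.0922) and Sox4 (0.088). With the replicate block Plau (0.0503), Crkl (0.05 after rounding) and Pik3r1 (0.0571) were lost, and so was Ntrk2 1370687_a_at (0.0504).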

How the results depend on the processing

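The number of member probe sets called higher after 1 session was 1 (3.65% of all). It became 2 without the filter (2.57%), with median centring (1.30%) or with 1 probe set per gene (4.20%), 3 with quantile normalization (3.56%) or with only the groups compared (8.25%), 5 with array weights (13.9%), and 4 with quantile normalization without the first 6XIMO array (10.4%). After 6 sessions the 2 higher (8.16%) became 4 without the filter (5.93%), 5 with array weights (20.1%), 3 with quantile normalization (8.05%), with a pseudocount of 64 (8.22%) or with quantile normalization without the first 6XIMO array (15.0%), and 1 with only the groups compared (4.78%), and the 0 lower became 1 with array weights (38.9%). Between 6XIMO and 1XIMO the 0 higher became 1 without the filter (2.62%), with quantile normalization (2.33%) or with a pseudocount of 64 (4.23%), and the 0 lower became 3 with array weights (31.3%) and 1 with quantile normalization without the first 6XIMO array (9.29%). Leaving out 1 array at a time gave 1 to 3 higher after 1 session, and 2 to 3 higher and 0 to 1 lower after 6. Between the stressed groups it gave 0 to 1 in each direction. The number of member probe sets tested ranged from 7 to 12 in these fits. Shares of all probe sets are given here only for the fit without the first 6XIMO array, so these ranges have no background beside them.

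The replicate numbers of the titles were also fitted as a block. With the block, 1 member was called lower after 6 sessions in place of 0 (Ngfr, adjusted p = 0.0266, against 14.9% of all probe sets called lower), and Ntrk2 1370687_a_at was not called after 1 session (0.0677) or between the stressed groups (0.0504). Of the named list genes 9 of 12 passed with it after 1 session. No other member call changed with it.

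Differences that changed sign were all far from the threshold in the main fit, except that of Crem between 6XIMO and 1XIMO, which was -0.11 with quantile normalization and -0.09 with that and without the first 6XIMO array. Leaving out 1 array gave, after 1 session, -0.72 to 0.40 for Ntrk2 1370652_at (0.40 and 0.04 in the 2 that changed sign), -0.63 to 0.20 for Ntrk3 (0.11, 0.05, 0.06 and 0.20, and 0.01 with median centring) and -0.88 to 0.07 for Gdnf. After 6 sessions it gave -0.58 to 0.45 for Ntrk2 1370652_at (0.45 and 0.24), -0.58 to 2.07 for Ntrk3 (and -0.11 with quantile normalization without the first 6XIMO array), -0.46 to 0.87 for Gfra1 1387007_at (-0.18 with array weights) and -0.11 to 0.78 for Gfra1 1367954_at (-0.04 without the third Control array, -0.27 with array weights). Between the stressed groups it gave -0.60 to 0.34 for Bdnf 1368678_at, -0.03 to 0.60 for Ntrk2 1383135_at (-0.04 with array weights), -0.26 to 0.53 for Ntrk2 1370652_at (-0.23, -0.15, -0.26 and -0.08, and -0.17 with quantile normalization), -0.45 to 2.19 for Ntrk3 and -0.86 to 0.03 for Gfra1 1367954_at, while Ret 1370989_at was 0.15 with quantile normalization without the first 6XIMO array. The cause was not tested.

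With 3 arrays per group, differences of dim probe sets such as Ntrk3 and Gdnf had standard errors over 1 on the log2 scale, and no detection calls were used here.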

Other observations

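Sorl1, which encodes a sorting receptor that carries TrkB and other cargo within the cell, was read by probe sets that disagreed, and was chosen after its values were seen. With 1377457_a_at the intensities were 1135, 1220 and 923 in Control, 879, 2069 and 1322 in 1XIMO, and 4309, 3132 and 2827 in 6XIMO, and all 6XIMO arrays were above all others. The difference was 1.62 ± 0.33 from Control (adjusted p = 0.00918) and 1.32 ± 0.33 from 1XIMO (adjusted p = 0.0386). With the brighter 1377458_at the difference of 6XIMO from Control was -0.19 ± 0.35 (adjusted p = 0.728). The other Sorl1 probe sets past the filter gave 0.39, 0.59 and -1.51, none of which passed.

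Ntf3, which encodes neurotrophin-3, was below the filter, with intensities of 32.6, 51.7 and 248 in Control, 124, 661 and 412 in 1XIMO, and 118, 472 and 562 in 6XIMO, and its groups overlapped. Ntf4, the other TrkB ligand, gave 50.2, 27.6 and 13.1 in Control, 160, 27.5 and 30.7 in 1XIMO, and 1908, 43.2 and 648 in 6XIMO. As with Gdnf, its highest value was that of the first 6XIMO array.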
